A study of Homo sapiens with 6 samples.

Results

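Translation initiation factors are the proteins that bring an mRNA, the initiator tRNA and the ribosomal subunits together at a start codon. The genes described here are all protein-coding genes whose symbol begins with EIF followed by a digit 1 to 6, without the EIF2AK kinases, and 52 of the 58051 genes in the deposited expression table met that rule. RNA was sequenced from 3 libraries of cells treated with piR-36249 mimics and 3 of cells treated with a scramble control. A piRNA is a class of small RNA best studied in the germ line, and a mimic is a synthetic copy of it. The label of all 6 gives NT2, short for NTera-2, a line of embryonal carcinoma cells. The genotype field of the mimic libraries reads as a knockdown of the piRNA, whereas their titles and treatment field name the mimics, and the groups here follow the titles.

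Initiation begins when eIF2, carrying GTP and the initiator tRNA, joins eIF1, eIF1A, eIF3 and eIF5 on the small ribosomal subunit. The eIF4 proteins bind the cap of the mRNA and unwind its leader, and eIF5B then joins the large subunit. eIF2B recharges eIF2 with GTP, a step that is blocked when stress kinases phosphorylate eIF2. Binding of eIF4E by 4E-BP proteins, which mTOR controls, limits use of the cap.

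Depth was between 47.9 and 62.8 M reads, recovered from the FPKM values, per library. Levels are FPKM, reads per kilobase of exon and per M reads, as the authors computed them. Markers of the labelled cell type were read in both groups. Of 11 embryonal carcinoma markers, 3 were above 1 FPKM in every library. NANOG, SOX2, SALL4, TDGF1 and L1TD1 were listed at 0 in all 6. Others were low without being 0 throughout. POU5F1 lay between 0.0332 and 0.0706 FPKM, DPPA4 lay between 0.130 and 0.268 FPKM, and LIN28A was at 0.00945 FPKM at most. An exact 0 in this table is not by itself a lack of expression, since EEF1G, an elongation factor gene that cells use generally, is also listed at 0 in all 6; how reads were counted is not given in the sources used here. Of 10 endothelial markers, 7 were above 1 FPKM in every library, and their summed level was between 419 and 438.8 FPKM with mimic and between 356.3 and 364.1 FPKM with scramble. The other 3 were low: over the 6 libraries VWF was at 0.525 FPKM at most, CLDN5 at 0.149 and KDR at 0.0400. The summed level of the 11 embryonal carcinoma markers was between 326.3 and 370.0 FPKM with mimic and between 260.0 and 306.5 FPKM with scramble, most of it from PODXL, which endothelial cells also express. The part of these shifts in the results below was not tested.

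Of the 52 genes, 48 had a mean of at least 0.5 FPKM and were tested with limma on log2(FPKM + 1), with Benjamini-Hochberg adjustment over all 12912 genes tested. EIF4E1B and EIF4E3 were listed at 0 in every library, EIF4EBP3 was at 0.121 FPKM at most, and the level of the Y-linked EIF1AY is not given. Of the 48, 13 were lower and 3 were higher with mimic at an adjusted p of at most 0.05, and 32 did not pass. The share that passed was 33.3%, beside 35.5% of all tested genes. By direction, 27.1% of the tested initiation factors were lower, beside 16.8% of all tested genes, and 6.25% were higher, beside 18.7%. Their median log2 fold change was -0.08, against 0.0025 over all tested genes. The libraries of the 2 groups did not overlap in 19 genes that were lower with mimic, 39.6% beside 23.2% of all tested genes, and in 4 that were higher, 8.33% beside 26%. These are descriptions of a list, with no test of the list itself. The count of 16 was 7 without mimic replicate 3, 9 without scramble replicate 1, and 10 without mimic replicate 2 or scramble replicate 2. The direction counts moved with it: without mimic replicate 3, 7 were lower (14.6%, beside 12.3% of all tested genes) and 0 were higher (beside 13.8%). Without scramble replicate 1, 8 were lower (16.7%, beside 12.5% of all tested genes) and 1 was higher (2.08%, beside 13.8%). With scramble replicate 2 left out, 8 were lower (16.7%, beside 13.3%) and 2 were higher (4.17%, beside 15.3%). Without mimic replicate 2, 9 were lower (18.8%, beside 14.4%) and 1 was higher (2.08%, beside 15.8%). In bulk RNA, fewer cells of a type and less RNA per cell cannot be told apart.

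**Figure D1:**
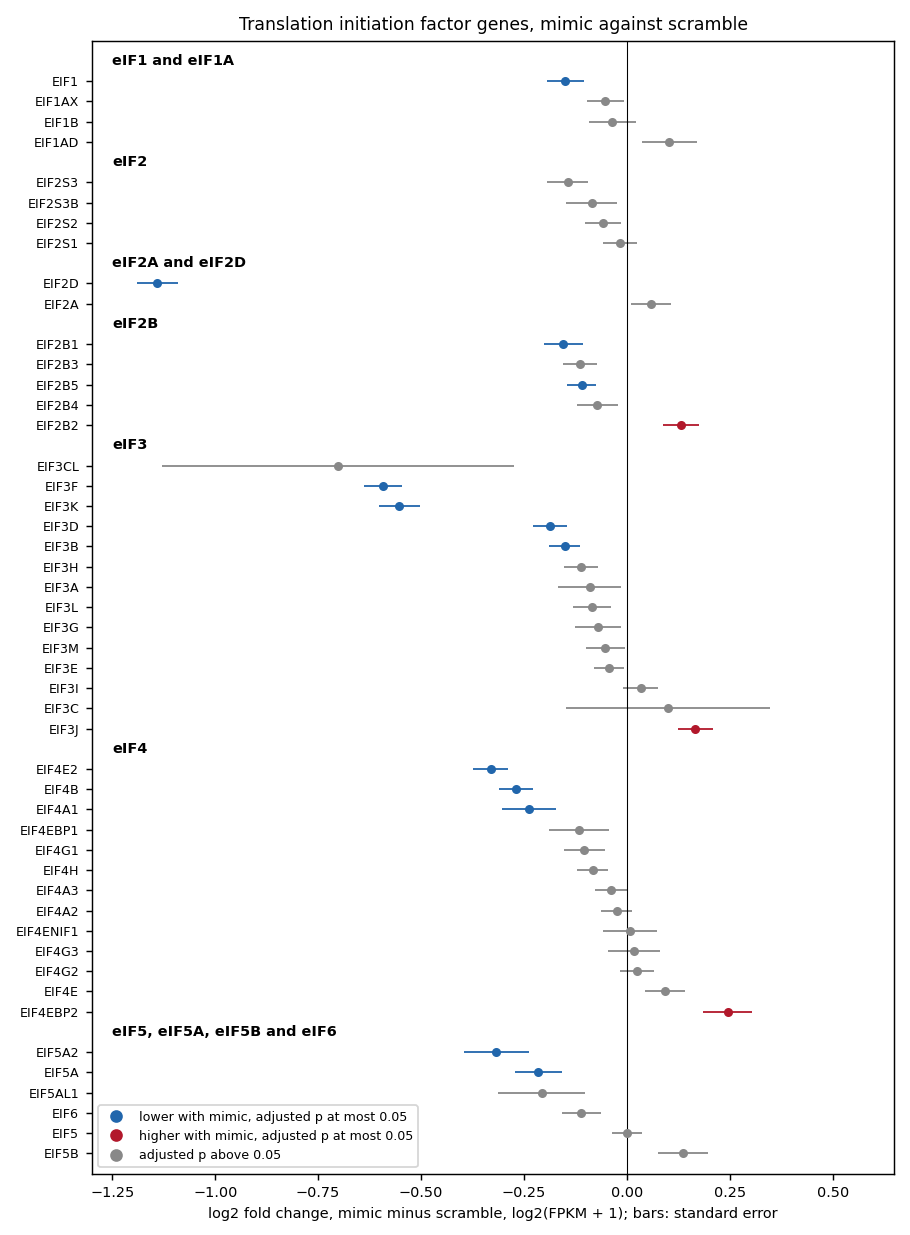
Log2 fold change (mimic minus scramble, on log2(FPKM + 1)) of the 48 tested initiation factor genes, grouped by complex; points are estimates from 3 libraries a group, bars are standard errors and colours mark the call. EIF2D stands apart at -1.14, EIF3F and EIF3K lie at -0.59 and -0.55, EIF3CL (-0.70) has a wide error and was not called, and most other genes lie within 0.25 of 0.

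The changes were uneven in size. Called falls of at least 0.25 on the log2 scale were seen in 6 of the 48 genes, 12.5% beside 10.3% of all tested genes: EIF2D, EIF3F, EIF3K, EIF4E2, EIF5A2 and EIF4B. Called rises of that size were seen in 0 of the 48, beside 11.6% of all tested genes. Both counts depend on the pseudocount of 1: with 0.1 in its place EIF4EBP2 was at 0.26 and EIF4A1 at -0.53, which makes 1 rise (beside 13.9%) and 7 falls (beside 11.9%). The calls of EIF2D, EIF3F, EIF3K, EIF4E2, EIF4B and EIF3D held in all 17 alternative settings, while the other 10 calls were lost without at least 1 single library.

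The transcription start stretches of these 6 genes were picked for display because all 6 hold a run of C and T letters that begins near the annotated start. Messages that begin with C followed by such a run, called TOP mRNAs, include many ribosomal proteins and some translation factors, and their translation is controlled by mTOR and LARP1. Whether the 6 genes give such messages was not tested, and in EIF4E2 the run opens 1 base after an annotated first base of A. Each line gives 10 bases before and 20 from the RefSeq start on GRCh38.p14, and capitals mark the run from its first counted C. In EIF3D and EIF4B the stretch of C and T letters opens with T, which the capitals leave out.
EIF2D (chr1:206612446-206612475, minus strand): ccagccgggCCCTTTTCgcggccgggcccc
EIF3F (chr11:7987327-7987356, plus strand): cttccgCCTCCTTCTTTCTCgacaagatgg
EIF3K (chr19:38619178-38619207, plus strand): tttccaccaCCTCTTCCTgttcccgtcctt
EIF3D (chr22:36529147-36529176, minus strand): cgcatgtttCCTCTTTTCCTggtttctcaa
EIF4E2 (chr2:232550679-232550708, plus strand): agcggaagtcaCTCCCTgaggcagtggcga
EIF4B (chr12:53006446-53006475, plus strand): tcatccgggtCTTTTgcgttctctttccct

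The run was counted where a C within 5 bases of the annotated start opened at least 5 C or T letters in a row. The base before that C was not read, so a counted run can be the end of a longer stretch of C and T letters. Among the lower genes it follows a T in EIF3D, EIF4B and EIF5A2 and a C in EIF1. Among the others it follows a T in EIF2S3, EIF2S3B, EIF2A, EIF3M and EIF4A2. Shares without such runs were not counted. The run so counted was found in 18 of the 44 initiation factor genes that have an entry in the RefSeq promoter table (40.9%). Of the 13 that were lower with mimic 8 had it (61.5%), and of the 27 tested ones that were not 9 had it (33.3%). Over the first window of each of 27305 genes the share was 21.1%. EIF3J and EIF4EBP2, which were higher with mimic, also had it. Within 300 bases (250 before to 50 after the start), the E-box CACGTG stood in 11 of the 44 and in 7.43% of all genes; it was in 4 of the 13 lower genes (EIF3F, EIF3K, EIF4B and EIF5A2) and in 6 of the 27 others. The letters CCGGAAGT, which ETS factors can bind, stood in 8 of the 44 and in 4.44% of all genes, with 3 of the 13 lower genes and 5 of the 27 others. Both motifs were read on both strands and cannot share a base, but CCGGAAGT on the minus strand holds a stretch of C and T letters that can overlap the run at the start. A match is a description of letters, and annotated starts can differ from those used in these cells.

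The core of eIF2, the carrier of the initiator tRNA, did not pass the test. EIF2S1, the alpha subunit that stress kinases phosphorylate, measured 44.6, 44.1 and 41.2 FPKM in mimic libraries against 43.1, 44.3 and 44.0 FPKM in scramble libraries. The groups overlapped (log2 fold change -0.02, SE 0.042, adjusted p = 0.774 with limma). EIF2S2, the beta subunit, averaged 41.3 ± 1.16 FPKM with mimic and 43.1 ± 1.95 FPKM with scramble (SD, n = 3 each). EIF2S3, the gamma subunit that binds GTP and tRNA, averaged 45.3 ± 0.897 FPKM with mimic and 50.2 ± 3.06 FPKM with scramble. Its libraries did not overlap, but it missed the threshold (log2 -0.14, limma adjusted p = 0.0569) and passed in 4 of 17 alternatives, among them the one without scramble replicate 3. EIF2S3B, a copy of EIF2S3 on another chromosome that holds 17.9% of its own 75-base stretches in common with it, lay at 1.28 ± 0.0281 FPKM with mimic and 1.42 ± 0.126 FPKM with scramble.

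EIF2D showed the largest change of the 52 genes. It encodes eIF2D, which can place tRNAs in the ribosomal P site without eIF2 and which acts in recycling of the small subunit after termination. EIF2D (ENSG00000143486, chromosome 1, 206571292 to 206612463, minus strand, GRCh38) measured 2.88, 2.88 and 2.85 FPKM in mimic libraries against 7.26, 7.38 and 7.99 FPKM in scramble libraries. The groups lie far apart, and the mimic libraries differ little from each other. In recovered reads these are 1363, 1255 and 1103 with mimic against 3676, 3142 and 3446 with scramble. The ratio of means was 0.381, and the log2 fold change on log2(FPKM + 1) was -1.14 (SE 0.050, limma adjusted p = 1.2e-05). Only 15 of the 12912 tested genes, EIF2D included, had a fold change as low or lower. The authors' deposited table of 401 changed genes holds 1 initiation factor, EIF2D, and lists a log2 fold change of -1.40 for it. In the annotation 0% of its exon bases lie in exons of another gene. EIF2A, a separate protein that is not a subunit of eIF2 despite its name, measured 16.1 ± 0.869 FPKM with mimic and 15.4 ± 0.467 FPKM with scramble and did not pass the test (log2 0.06).

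Of the 5 subunits of eIF2B, the exchange factor of eIF2, 2 were lower, 1 was higher and 2 did not pass, all with small differences; over all tested genes 16.8% were lower and 18.7% higher. EIF2B1, of the regulatory core that senses phosphorylated eIF2, measured 15.4, 14.1 and 14.9 FPKM with mimic against 16.3, 16.3 and 17.1 FPKM with scramble (log2 -0.15, limma adjusted p = 0.0357). EIF2B5, the catalytic subunit, measured 25.3, 25.8 and 24.9 FPKM with mimic against 27.2, 27.7 and 27.4 FPKM with scramble (log2 -0.11, limma adjusted p = 0.0437). EIF2B2, also of the regulatory core, measured 16.6, 15.8 and 16.3 FPKM with mimic against 14.7, 14.2 and 15.3 FPKM with scramble (log2 0.13, limma adjusted p = 0.0467). In each of the 3 genes the groups did not overlap, but the calls lie near the threshold. Of all tested genes, 23.2% were lower and 26% were higher with mimic without overlap of the groups. EIF2B5 lost its call whichever single library was left out (adjusted p up to 0.136), on the TPM scale (0.137), after quantile normalization (0.0823), without the variance trend (0.0797) and with the replicate block (0.0521). EIF2B1 kept its call only when mimic replicate 1 was the library left out (otherwise up to 0.0981), and EIF2B2 only when it was scramble replicate 3 (otherwise up to 0.140). EIF2B3 (8.27 ± 0.251 with mimic, 9.03 ± 0.0950 FPKM with scramble) and EIF2B4 (9.62 ± 0.409 with mimic, 10.2 ± 0.447 FPKM with scramble) did not pass.

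eIF3 is the largest initiation factor, a scaffold of many subunits on the small ribosomal subunit. Of its 14 genes 4 were lower (EIF3F, EIF3K, EIF3D and EIF3B), 1 was higher (EIF3J) and 9 did not pass, with a median log2 fold change of -0.09. The share that passed was 35.7%, beside 35.5% of all tested genes, with 28.6% lower, beside 16.8%, and 7.14% higher, beside 18.7%. EIF3F, of the subunits with an MPN domain, measured 17.5, 17.1 and 17.5 FPKM in mimic libraries against 26.4, 25.5 and 28.3 FPKM in scramble libraries. The highest mimic library lies well below the lowest scramble library, and the log2 fold change was -0.59 (SE 0.046, limma adjusted p = 9.7e-05). EIF3FP3, a processed pseudogene that holds 4.29% of the 75-base stretches of EIF3F, measured 5.84, 4.79 and 6.56 FPKM with mimic against 8.19, 8.40 and 8.91 FPKM with scramble. EIF3F lies on chromosome 11 (7970251 to 8001862, plus strand).

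EIF3K, a small subunit that pairs with EIF3L at the edge of the complex, measured 39.0, 34.7 and 35.5 FPKM in mimic libraries against 53.7, 53.0 and 54.7 FPKM in scramble libraries. Again the groups lie apart, with a log2 fold change of -0.55 (SE 0.049, limma adjusted p = 0.00018); the gene lies on chromosome 19 (38619082 to 38636955, plus strand). Its partner EIF3L averaged 21.02 ± 0.681 FPKM with mimic and 22.4 ± 1.07 FPKM with scramble, overlapped between groups and did not pass (log2 -0.08). EIF3H, the other MPN domain subunit and the partner of EIF3F, averaged 21.2 ± 0.406 FPKM with mimic and 23.02 ± 0.878 FPKM with scramble (log2 -0.11, limma adjusted p = 0.0729). EIF3M, which binds close to EIF3F and EIF3H, averaged 17.8 ± 0.879 FPKM with mimic and 18.5 ± 0.564 FPKM with scramble and did not pass. Whether the falls of EIF3F and EIF3K differ from those of their partners was not tested.

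EIF3D, the subunit that can bind the cap of certain mRNAs, measured 48.6, 48.5 and 45.5 FPKM with mimic against 53.04, 53.9 and 55.8 FPKM with scramble (log2 -0.19, limma adjusted p = 0.0105). EIF3B, which anchors EIF3G and EIF3I, measured 41.5, 39.8 and 40.3 FPKM with mimic against 45.02, 44.2 and 46.1 FPKM with scramble (log2 -0.15, limma adjusted p = 0.0151). Both were lower in every mimic library than in any scramble library. EIF3B lost its call without mimic replicate 3 or scramble replicate 1, with adjusted p up to 0.0551. EIF3J, a loosely bound factor at the mRNA entry channel, was the riser of the group, with 25.7, 26.9 and 26.0 FPKM with mimic against 22.3, 23.3 and 24.1 FPKM with scramble (log2 0.17, limma adjusted p = 0.0182). With mimic replicate 2, mimic replicate 3 or scramble replicate 1 left out, EIF3J no longer passed (adjusted p up to 0.0736).

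EIF3A, the largest subunit, measured 46.8, 47.9 and 41.05 FPKM in mimic libraries against 48.4, 52.2 and 44.1 FPKM in scramble libraries. The groups overlapped, and mimic replicate 3 and scramble replicate 3 were the lowest of each. EIF3I (191.6 ± 5.75 with mimic, 187.2 ± 6.55 FPKM with scramble), EIF3G (97.5 ± 2.52 with mimic, 102.6 ± 7.69 FPKM with scramble) and EIF3E (25.03 ± 0.262 with mimic, 25.8 ± 0.704 FPKM with scramble) did not pass either. The order of levels shifted at EIF3F and EIF3K. With mimic the 3 libraries of EIF3F lay below all 3 of EIF3J, EIF3H and EIF3L and overlapped with EIF3M. With scramble they lay above all 3 of EIF3J, EIF3H, EIF3L and EIF3M. With mimic the 3 libraries of EIF3K lay below all 3 of EIF3A and EIF3B, and with scramble they lay above all 3 of both. EIF3L shares part of its exons with another gene, so its level is less certain.

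**Figure D2:**
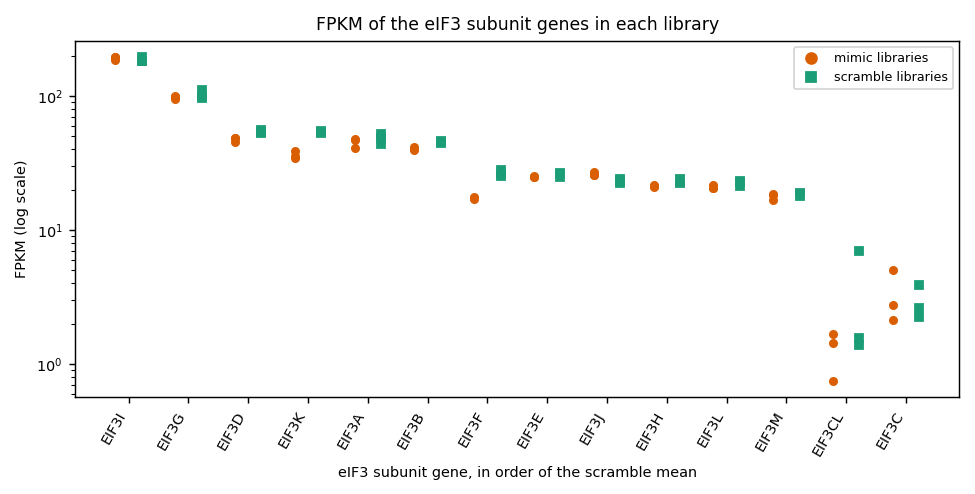
FPKM (log scale) of the 14 eIF3 subunit genes in each of 3 mimic libraries (circles) and 3 scramble libraries (squares), in order of the scramble mean. EIF3K (34.7 to 39.0 with mimic, 53.0 to 54.7 with scramble) and EIF3F (17.1 to 17.5 with mimic, 25.5 to 28.3 with scramble) show the widest gaps between groups that do not overlap; EIF3CL has 1 scramble library at 6.96 FPKM.

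The eIF4 proteins form the cap complex, and of 13 tested genes 3 were lower, 1 was higher and 9 did not pass, so 30.8% passed, beside 35.5% of all tested genes. The lower share was 23.1%, beside 16.8% of all tested genes, and the higher share was 7.69%, beside 18.7%. EIF4E2 encodes 4EHP, a cap-binding protein that does not bind eIF4G and is known to repress translation of mRNAs it is recruited to. It measured 7.69, 7.84 and 7.97 FPKM in mimic libraries against 9.81, 10.03 and 10.5 FPKM in scramble libraries. Every mimic library was lower than every scramble library (log2 -0.33, SE 0.043, limma adjusted p = 0.0010). EIF4E2 lies on chromosome 2 (232550052 to 232583644, plus strand), and 24.2% of its exon bases lie in exons on the opposite strand. EIF4B, which stimulates the helicase eIF4A, measured 59.9, 61.3 and 58.03 FPKM with mimic against 74.01, 73.2 and 69.4 FPKM with scramble. This too left a gap between the groups (log2 -0.27, SE 0.041, limma adjusted p = 0.0021). EIF4B lies on chromosome 12 (53006158 to 53042209, plus strand).

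The cap-binding protein itself, EIF4E, measured 2.96, 2.89 and 2.91 FPKM in mimic libraries against 2.67, 2.76 and 2.59 FPKM in scramble libraries. Every mimic library was slightly higher, but the test was not passed (log2 0.09, limma adjusted p = 0.182). The exons annotated to EIF4E span 14067 bases in all, the longest of the initiation factor genes, against 1073 bases for EIF4EBP1, and FPKM divides by that length. EIF4G1, the main scaffold, measured 191.9, 207.7 and 192.4 FPKM with mimic against 215.7, 218.8 and 201.8 FPKM with scramble; the groups overlapped and the test was not passed (log2 -0.10, limma adjusted p = 0.145). EIF4G2, a scaffold that lacks the eIF4E site, averaged 104.5 ± 2.82 FPKM with mimic and 102.8 ± 3.79 FPKM with scramble. EIF4G3 averaged 7.27 ± 0.543 FPKM with mimic and 7.17 ± 0.416 FPKM with scramble. Neither passed the test.

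Of the 4E-BP genes, which encode inhibitors of eIF4E, EIF4EBP2 was higher. It measured 13.0, 14.3 and 14.7 FPKM in mimic libraries against 12.1, 11.9 and 10.9 FPKM in scramble libraries, without overlap (log2 0.24, SE 0.059, limma adjusted p = 0.0148). It lost its call without mimic replicate 3 (adjusted p = 0.0564). EIF4EBP1 was present at a level more than 10 times that of EIF4EBP2, with 182.3, 157.3 and 173.1 FPKM with mimic against 185.8, 170.4 and 199.8 FPKM with scramble. Its groups overlapped and it did not pass (log2 -0.12, limma adjusted p = 0.252). EIF4ENIF1, the transporter that carries eIF4E into the nucleus and binds it in P-bodies, averaged 3.15 ± 0.316 FPKM with mimic and 3.12 ± 0.0752 FPKM with scramble and did not pass.

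Among the helicases, EIF4A2 (75.2 ± 1.88 with mimic, 76.5 ± 1.65 FPKM with scramble), EIF4A3 of the exon junction complex (35.6 ± 1.01 with mimic, 36.6 ± 0.994 FPKM with scramble) and the cofactor EIF4H (174.6 ± 4.09 with mimic, 185.02 ± 4.23 FPKM with scramble) did not pass. EIF4A1, the main eIF4A helicase gene in most cells, was listed at 0.568, 0.526 and 0.470 FPKM in mimic libraries against 0.774, 0.848 and 0.759 FPKM in scramble libraries. It passed as lower (log2 -0.24, limma adjusted p = 0.0260), but did not pass with mimic replicate 2, mimic replicate 3, scramble replicate 1 or scramble replicate 2 left out (adjusted p up to 0.0828). That level is far below the 75.2 FPKM of EIF4A2 with mimic, and 48.6% of the exon bases of EIF4A1 are also exons of other genes on the same strand. Of these genes, the readthrough gene SENP3-EIF4A1 reached 0.0679 FPKM and AC016876.2 reached 0.0164 FPKM at most. EIF4A1P10, a processed pseudogene of EIF4A1, measured 20.2, 17.2 and 18.9 FPKM with mimic against 19.1, 20.8 and 24.1 FPKM with scramble. How reads shared by such genes were counted is not given in the sources used here, so the level and the call of EIF4A1 are uncertain.

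**Figure D3:**
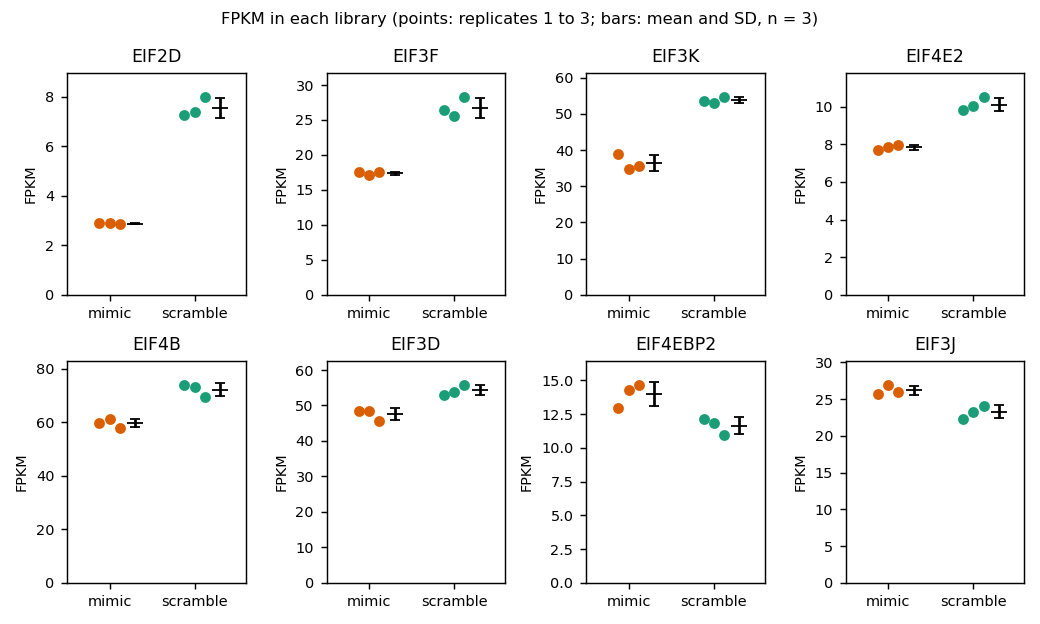
FPKM of 8 initiation factor genes in each library (points are replicates 1 to 3, bars are mean and SD, n = 3), with mimic on the left. EIF2D, EIF3F, EIF3K, EIF4E2, EIF4B and EIF3D lie lower in every mimic library, and EIF4EBP2 and EIF3J lie higher.

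Sharing of annotation and sequence set apart a few other genes. EIF3C and EIF3CL are near-identical copies: 96.03% of the 75-base stretches of EIF3CL occur in EIF3C. Both were listed at levels far below most eIF3 subunits, with EIF3C at 2.74, 5.08 and 2.13 FPKM with mimic against 2.24, 3.92 and 2.63 FPKM with scramble. EIF3CL was at 0.756, 1.69 and 1.43 FPKM with mimic against 1.40, 6.96 and 1.58 FPKM with scramble, where scramble replicate 2 stands alone, and neither passed. For EIF4EBP3, 73.4% of exon bases are shared with ANKHD1-EIF4EBP3, and it had between 1 and 4 recovered reads per library. EIF3L shares 41.1% of its exon bases with a same-strand gene and yet averaged 21.7 FPKM over the 6 libraries.

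**Figure D4:**
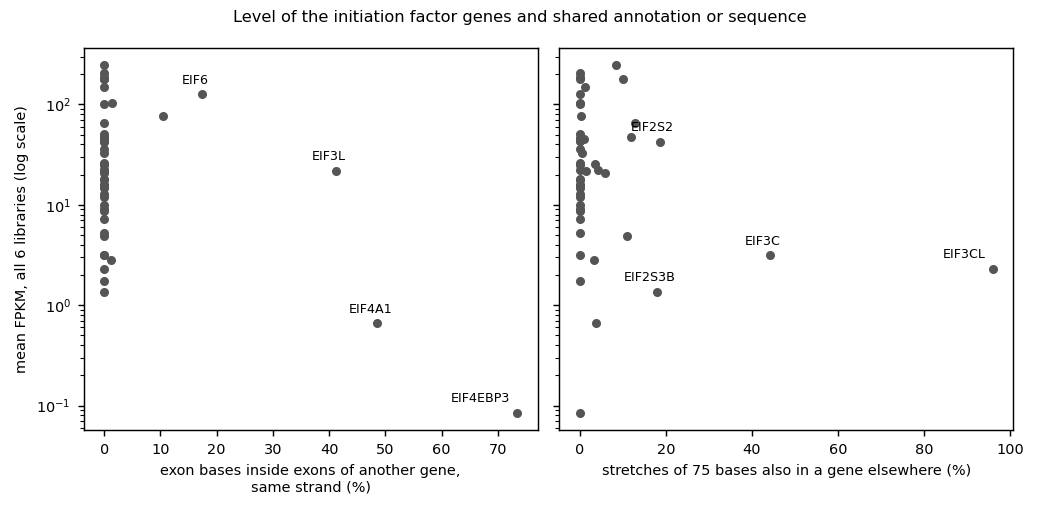
Mean FPKM over all 6 libraries (log scale) of the initiation factor genes with a level above 0, against the share of exon bases inside exons of another gene on the same strand (left) and the share of 75-base stretches found in genes elsewhere (right); each point is a gene. EIF4EBP3 (73.4%), EIF4A1 (48.6%), EIF3C (44.1%) and EIF3CL (96.03%) combine high sharing with low levels, whereas EIF3L (41.1%) does not.

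Of the factors that find the start codon, EIF1, which guards start codon choice, was lower. It measured 146.6, 135.7 and 140.0 FPKM in mimic libraries against 153.3, 152.3 and 163.01 FPKM in scramble libraries. The gap between groups is narrow (log2 -0.15, limma adjusted p = 0.0371), and the call held only when mimic replicate 1 was the library left out (otherwise adjusted p up to 0.108). EIF1B, a close homologue of EIF1 (17.5 ± 0.963 with mimic, 17.9 ± 1.07 FPKM with scramble), EIF1AX, the X-linked eIF1A gene (20.4 ± 0.829 with mimic, 21.1 ± 0.681 FPKM with scramble), and EIF1AD (15.1 ± 1.5 with mimic, 14.0 ± 0.315 FPKM with scramble) did not pass.

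EIF5A encodes a factor that helps the ribosome through stalling sequences in elongation and termination and that carries the modified lysine hypusine. It measured 232.03, 217.6 and 227.8 FPKM in mimic libraries against 249.7, 254.5 and 283.8 FPKM in scramble libraries. All mimic libraries were lower (log2 -0.22, limma adjusted p = 0.0214), and the call was lost without mimic replicate 2 or 3 (adjusted p up to 0.0659). Its homologue EIF5A2, at a much lower level, measured 1.19, 1.59 and 1.56 FPKM with mimic against 1.92, 2.08 and 2.11 FPKM with scramble (log2 -0.32, limma adjusted p = 0.0173). EIF5A2 lost its call without scramble replicate 2 (adjusted p = 0.0508). EIF5AL1, an intronless copy that shares stretches with EIF5A, averaged 4.49 ± 0.743 FPKM with mimic and 5.32 ± 0.609 FPKM with scramble and did not pass.

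EIF5, the GTPase activator of eIF2, averaged 32.9 ± 0.536 FPKM with mimic and 33.0 ± 0.746 FPKM with scramble. EIF5B, the GTPase that joins the subunits, averaged 12.6 ± 0.790 FPKM with mimic and 11.3 ± 0.711 FPKM with scramble (log2 0.14, limma adjusted p = 0.117). EIF6, which keeps the large subunit from joining too early, measured 117.5, 124.3 and 121.0 FPKM with mimic against 124.8, 129.5 and 138.1 FPKM with scramble. Its groups did not overlap, by a margin of less than 1 FPKM, and it did not pass (log2 -0.11, limma adjusted p = 0.106).

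Partners and regulators of these factors were read from a fixed list of 31 genes. Of 30 tested, 9 were lower, 8 were higher and 13 did not pass, so 56.7% passed, beside 35.5% of all tested genes, and their median log2 fold change was -0.0069. The lower share was 30%, beside 16.8% of all tested genes, and the higher share was 26.7%, beside 18.7%. The count of 17 was 10 without mimic replicate 3 or scramble replicate 1, and 11 without mimic replicate 2. Over all tested genes, 12.3% were lower and 13.8% were higher without mimic replicate 3. Without scramble replicate 1 these shares were 12.5% and 13.8%, and without mimic replicate 2 they were 14.4% and 15.8%. The largest fall was in RPTOR, the subunit of mTOR complex 1 that recruits 4E-BPs and S6 kinases, with 5.91, 6.49 and 6.02 FPKM with mimic against 9.83, 10.2 and 9.83 FPKM with scramble (log2 -0.62, limma adjusted p = 9.2e-05). TSC1, of the complex that restrains mTOR complex 1, was higher, with 6.90, 7.58 and 6.57 FPKM with mimic against 5.35, 5.50 and 5.10 FPKM with scramble (log2 0.34, limma adjusted p = 0.0033). MTOR itself averaged 8.72 ± 0.876 FPKM with mimic and 8.82 ± 0.436 FPKM with scramble and did not pass. MKNK2, a kinase of eIF4E, was higher (log2 0.38), with 37.3, 36.01 and 40.2 FPKM with mimic against 30.4, 27.4 and 28.5 FPKM with scramble.

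DENR, whose protein forms with MCTS1 a pair that resembles eIF2D, was lower, with 24.9, 25.9 and 24.6 FPKM with mimic against 30.6, 33.8 and 33.1 FPKM with scramble (log2 -0.36, limma adjusted p = 0.0011). MCTS1 averaged 22.8 ± 1.07 FPKM with mimic and 24.2 ± 1.94 FPKM with scramble and did not pass. DHPS, which makes the first step of hypusine on eIF5A, was lower (log2 -0.26, limma adjusted p = 0.0026), with 22.5, 20.7 and 22.05 FPKM with mimic against 26.04, 25.9 and 26.8 FPKM with scramble. DOHH, which completes hypusine, was lower as well (log2 -0.25, limma adjusted p = 0.0156). PABPC4, a poly(A)-binding protein, was lower, with 24.4, 24.8 and 25.9 FPKM with mimic against 31.4, 32.3 and 33.1 FPKM with scramble (log2 -0.35, limma adjusted p = 0.00057). The groups lie apart in each of these called genes, while 23.2% of all tested genes were lower with mimic without overlap of the groups. PAIP2, a protein that displaces poly(A)-binding protein from mRNA, rose (log2 0.35, limma adjusted p = 0.0052). Of the 4 eIF2 kinases, EIF2AK2, the double-stranded RNA sensor PKR (log2 0.33, limma adjusted p = 0.0220), and EIF2AK3, the endoplasmic reticulum sensor PERK (log2 0.22, limma adjusted p = 0.0298), were higher, and EIF2AK1 and EIF2AK4 did not pass. MTOR, MCTS1, DOHH, PAIP2 and the kinases were named after their values were seen.

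**Figure D5:**
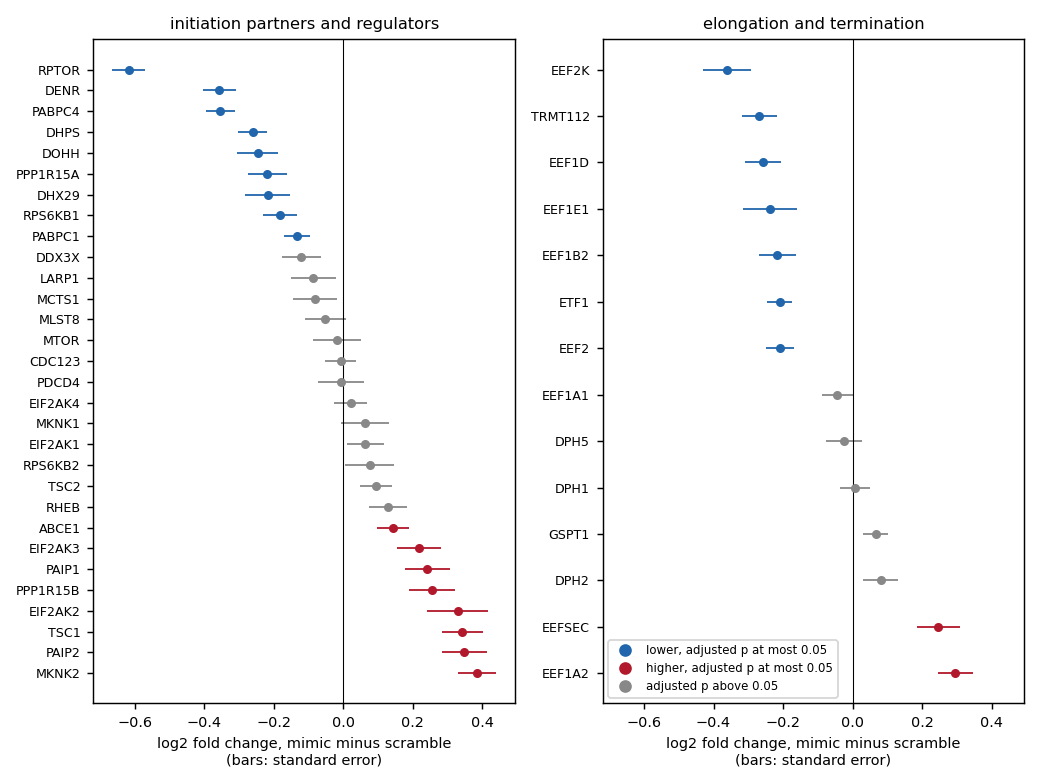
Log2 fold change (mimic minus scramble, on log2(FPKM + 1)) of the tested genes among initiation partners and regulators (left, 30 genes) and among elongation and termination factors (right, 14 genes); bars are standard errors and colours mark the call. RPTOR lies lowest at -0.62 and MKNK2 highest at 0.38 on the left, and EEF2K lies lowest at -0.36 on the right.

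For the later steps of translation, 16 genes were read. Of the 14 tested elongation and termination genes 7 were lower, 2 were higher and 5 did not pass, so 64.3% passed, beside 35.5% of all tested genes, with a median log2 fold change of -0.13. The lower share was 50%, beside 16.8% of all tested genes, and the higher share was 14.3%, beside 18.7%. EEF2K, the kinase that inhibits the elongation factor eEF2, fell to 6.40, 7.33 and 7.41 FPKM with mimic, against 9.59, 9.83 and 8.57 FPKM with scramble (log2 -0.36, limma adjusted p = 0.0058). EEF2 itself was lower, with 763.5, 789.0 and 797.9 FPKM with mimic against 906.5, 897.3 and 913.0 FPKM with scramble (log2 -0.21, limma adjusted p = 0.0067). The call of EEF2 was lost after quantile normalization (log2 -0.05, adjusted p = 0.478) and without a filter (adjusted p = 0.0756). ETF1, the release factor that reads stop codons, was lower, with 44.7, 45.5 and 43.03 FPKM with mimic against 51.7, 51.7 and 51.1 FPKM with scramble (log2 -0.21, limma adjusted p = 0.0035). TRMT112, an activator of the enzymes that methylate release factors, was lower, with 85.4, 85.05 and 83.5 FPKM with mimic against 98.97, 97.9 and 109.98 FPKM with scramble (log2 -0.27). EEF1D, of the exchange factor of eEF1A, was lower, with 10.8, 9.95 and 10.05 FPKM with mimic against 12.3, 12.002 and 13.1 FPKM with scramble (log2 -0.26). EEF1A2, a tissue-restricted form of eEF1A, was higher, with 10.2, 9.74 and 9.19 FPKM with mimic against 7.43, 7.79 and 7.98 FPKM with scramble (log2 0.30, limma adjusted p = 0.0037). In all 6 of these genes, which were picked by smallest p, the groups did not overlap. Of all tested genes, 23.2% were lower and 26% were higher with mimic without overlap of the groups.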

How the data were processed

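The submitters' processing notes name DESeq2 1.26.0, featureCounts 2.0.1, HISAT2 2.1.0, Trimmomatic 0.39 and the build GRCh38. Not given in the sources used here: annotation release, counting options, strand and FPKM formula. FPKM values for 58051 genes in 6 libraries were deposited by the authors. The authors also deposited a comparison table, with mean normalized counts (a signal), log2 fold changes and their errors, a statistic (a score) and p-values for 401 genes; it holds only changes of at least 1.00 on the log2 scale, with the sign of mimic minus scramble FPKM in all 401.

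Symbols, gene types and exon lengths came from GENCODE 29 and a symbol table, matching 57447 identifiers. FPKM times exon length gave whole multiples of 1 read (tolerance 0.02 reads) for 96.4% to 96.7% of low values per library, which gave the depths. On log2(FPKM + 1), limma 3.58.1 in R 4.3.3 was fitted with a trended variance and no covariate to genes averaging 0.5 FPKM or more. Such fold changes understate low genes. No label states that the libraries of a group are separate cultures; p-values thus reflect the spread among these libraries alone, which may be technical. Per-library values are given for called genes and 10 core factors, and for lists the 6 called genes with the smallest p. Members and lists were chosen with earlier results of these data known. Promoter letters are from RefSeq (GRCh38.p14), the first window listed per gene. Alternatives covered pseudocount, filter, scaling, variance model, voom on recovered reads, the replicate block and each library left out.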

Additional observations from a re-analysis of the deposited data

How the results depend on the processing

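Of the 48 tested initiation factors, 41 kept their sign in all alternatives, and 6 of the 16 called ones kept their call. The count of called initiation factors was 9 without a filter and 7 to 15 with 1 library left out. Without a filter 30416 genes were tested, of which 5.22% were lower and 5.8% were higher. Of the 49 initiation factors tested there, 16.3% were lower and 2.04% were higher. For partners and regulators the count of 17 was 8 without a filter and 10 to 15 with 1 library left out, and for elongation and termination the count of 9 was 5 without a filter. Over all genes, 3374 to 4006 passed with 1 library left out, against 4584. The median log2 fold change of the tested initiation factors stayed between -0.09 and -0.06. Signs turned only in genes that were not called. EIF2S1 was at 0.0048 on the TPM scale and between -0.039 and 0.018 with 1 library left out. EIF5 was at 0.022 on the TPM scale, at 0.00019 under voom and between -0.016 and 0.015 with 1 library left out. EIF4ENIF1 was at -0.0089 after quantile normalization and between -0.034 and 0.072 with 1 library left out. With 1 library left out EIF4G3 lay between -0.032 and 0.063, EIF1B between -0.064 and 0.011, EIF4G2 between -0.0046 and 0.047, and EIF3C between -0.18 and 0.30; the cause was not tested. With 3 libraries a group, the smallest called difference among initiation factors was -0.11 (EIF2B5).

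No clear pairing of the libraries by replicate number was seen. Deviations of same-numbered libraries correlated at -0.062, 0.241 and 0.054, and not every library correlated best with its own number. With so few libraries these values cannot decide whether same-numbered libraries were handled together. With the replicate block 15 initiation factors and 4609 genes were called.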
